A study of Saccharomyces cerevisiae with 6 samples.

Results

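The genes described here encode the subunits of RNA polymerase I, II and III of budding yeast, 31 of the 6212 identifiers on the arrays. They were chosen by name, as the genes called RPA, RPB or RPC with a number together with RPO21, RPO26, RPO31 and RET1, after systematic names had been matched to the R64 yeast gene table. The cells were strain mmr09-4 (cml476 background), in which a kanmx4-teto7 cassette drives YPI1, a regulator of the protein phosphatase 1 catalytic subunit Glc7, so that doxycycline shuts YPI1 off. Cultures in YPD, a rich glucose medium, received 100 µg/ml doxycycline in an ethanol and water mix for 2, 4 or 6 h, and their controls were the same strain with the solvent alone for the same time. Each time had 1 treated and 1 untreated RNA on 2 dye-swapped 2-colour arrays, which makes 3 RNA pairs and 6 arrays. Controls carry the promoter cassette as well, and cells with the native YPI1 promoter were not analysed here, so a response to doxycycline itself cannot be told apart from one to the loss of YPI1.

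Eukaryotic cells split transcription among these enzymes. RNA polymerase I (Pol I) makes the large ribosomal RNA precursor in the nucleolus, RNA polymerase II (Pol II) makes messenger RNA, and RNA polymerase III (Pol III) makes transfer RNA and the 5S ribosomal RNA. Each has a pair of very large subunits that form the catalytic cleft, a small assembly platform, a set of small subunits common to all of them, and a stalk at the RNA exit, to which Pol I and Pol III add built-in relatives of Pol II initiation factors. In growing yeast most transcription serves ribosome production, so Pol I and Pol III activity follows growth rate. By enzyme the list holds 7 genes of Pol I alone, 7 of Pol II alone, 10 of Pol III alone, 2 shared by Pol I and III, and 5 shared by all.

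Each value is a log2 ratio of treated over untreated cells, 1 per gene and array, so 0 means equal signal, 1 a doubling and −1 a halving. A value of 1 time is the mean ± SD of its 2 arrays (n = 2), and this SD is technical because both arrays used the same RNA. In bulk RNA, a difference in some of the cells cannot be told apart from a smaller difference in all of them. YPI1 had values of −4.39 ± 0.48 (2 h), −5.48 ± 0.23 (4 h) and −6.30 ± 0.19 (6 h), negative on all 6 arrays. The direction of the ratios is not stated in the sources used here and was taken from these values as doxycycline over untreated, so YPI1 does not check the labels independently. Arrays held values for 4250 to 4804 genes, and 3391 genes had one on every array. Depth in the sense of signal intensity was not analysed here, and precision is limited by how few arrays there are.

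At 2 h and 4 h no polymerase subunit gene was near a 2-fold difference, while at 6 h the list spread out widely. The genes of the large catalytic subunits and of RPC82 lay above 0, and those of most small subunits below it. RPC82 was highest at 1.03 ± 0.04, and RPA12 was lowest at −1.12 ± 0.34. The same split by size ran through the rest of the yeast genes at 6 h. Set against genes of like length on the same chromosome, the subunit genes had a median of 0.00 and none was past 2-fold.

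Not every subunit was measured. In total 24 genes had a value on all 6 arrays, 3 on 5 arrays and 1 on 4. RPC11 had a single value, on replicate 2 of 6 h, and RPB10 and RPA190 had none. RPO21, the 1 gene with 4 values, lacked both arrays of 6 h. The gaps sit at both ends of the size range, since RPB10 and RPC11 are among the 3 shortest genes of the list and RPO21 and RPA190 are its 2 longest. Among all genes with an annotated length, 69.3% had both arrays of 6 h, against 49.6% of the 256 genes under 350 bp and 55.7% of the 88 over 4900 bp. The largest subunits of both Pol I and Pol II are therefore missing from every 6 h statement that follows.

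**Figure D1:**
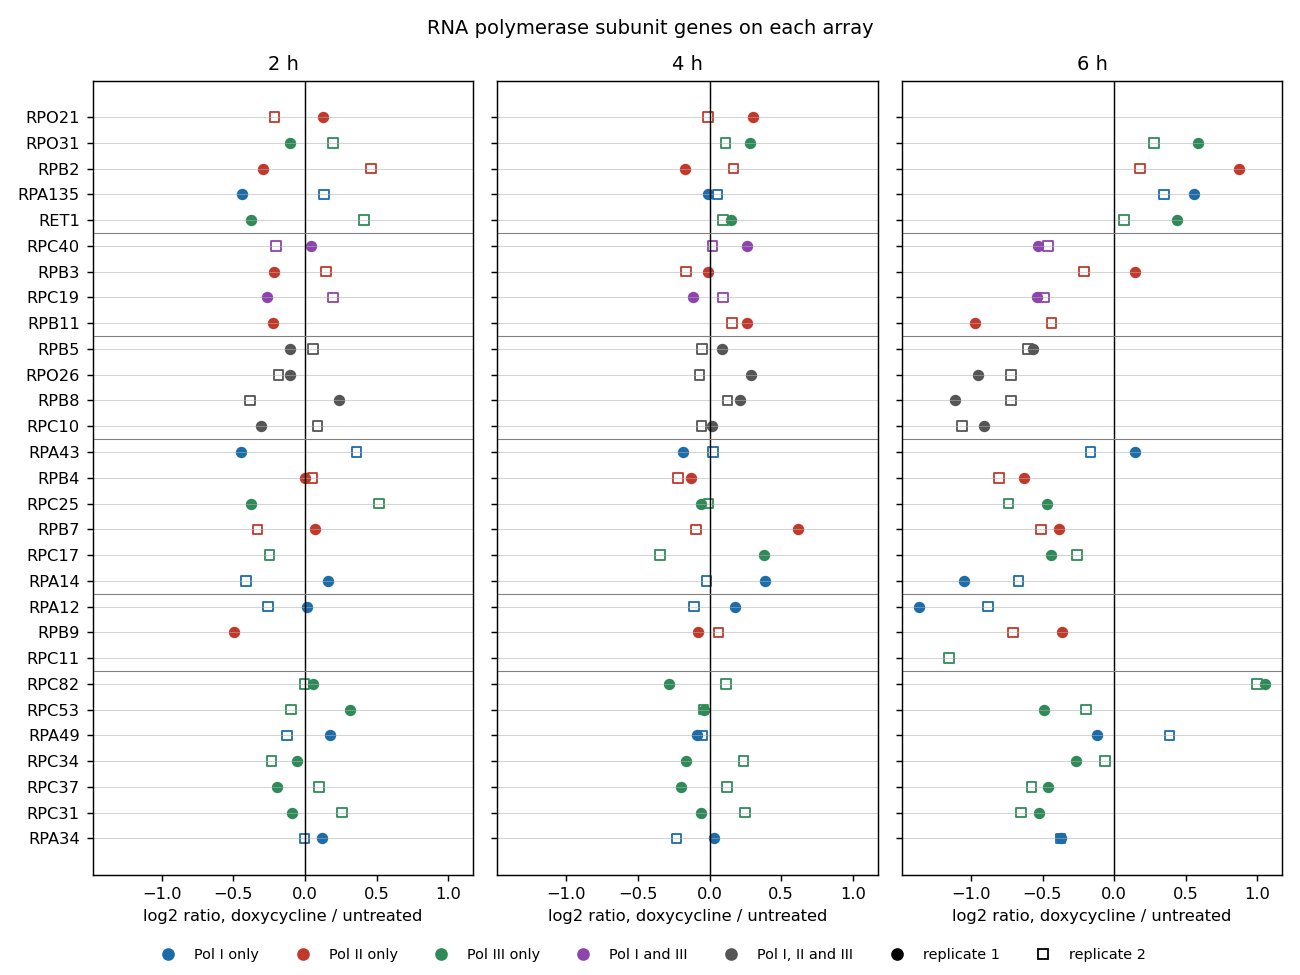
Log2 ratio of doxycycline over untreated cells (x axis) for the 29 subunit genes with any value (rows), in panels for 2, 4 and 6 h. Filled circles are replicate 1 and open squares replicate 2 of a time, colours show which polymerase holds the subunit, and grey lines part the roles (from the top, catalytic subunits, assembly platform, subunits common to all enzymes, stalk, RNA cleavage, and built-in initiation and elongation subunits). Values lie within 1 of 0 at 2 h and 4 h, and at 6 h run from −1.36 to 1.05.

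Over the 3 times together, no subunit gene passed either test. Limma, fitted on the 3391 complete genes with Benjamini-Hochberg adjustment, called 0 of 24 subunit genes for a mean different from 0 (background 0.0295% of all genes) and 0 of 24 for a slope on hours (background 0.059%). Adjusted p ran from 0.806 to 0.952 for the mean and from 0.306 to 0.88 for the slope in the limma fits. At an unadjusted p below 0.05 the mean test named 0 of them and 10 of all genes, and the slope test 2 of them, RPA12 and RPC10, and 486 of all genes. None of the 24 had 1 sign on all 6 arrays, against a background of 1.98%. With 4 h left out, limma called the slope of 9 of 24, but also that of 51.5% of all genes. These were RPC82, higher by 0.16 per hour, and RPA12, RPC10, RPB8, RPA14, RPO26, RPB4, RPB5 and RPC25, lower by −0.17 to −0.09 per hour. That line is forced through 0 and uses only the 2 h and 6 h means, so it does not show a steady change. In the 4 h means left out, RPC82 was at −0.08. RPA12, RPB8, RPA14, RPO26 and RPB5 were above 0 there, and RPC10, RPB4 and RPC25 below. The 3 pairs differ in time of treatment, so a gene that moves with time inflates the error of its own mean, and no p here measures the spread between cultures.

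The early times gave small values that changed sign with the dye. At 2 h the 25 subunit genes with both arrays lay between −0.15 and 0.11, with a median of −0.04 (−0.01 over all genes). None was past 2-fold, where the background was 0.0486%, a gene being counted when its mean was at least 1 in size with the same sign on both arrays. In 22 of the 25 the swapped arrays had opposite signs, against a background of 66.5% of all genes. RPB2, the second largest Pol II subunit, read −0.29 on replicate 1 and 0.46 on replicate 2. RPA135, its Pol I counterpart, read −0.44 and 0.13. RET1, its Pol III counterpart, read −0.38 and 0.41. All 3 second largest subunits were thus negative with doxycycline RNA in Cy5 and positive with it in Cy3. Among the genes with the same sign on both arrays, RPO26, common to all enzymes, was at −0.14 ± 0.06, RPC34 of the Pol III initiation trimer at −0.14 ± 0.13, and the Pol II stalk gene RPB4 at 0.03 ± 0.03.

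At 4 h the 28 genes with both arrays lay between −0.18 and 0.26, with a median of 0.02 (0.01 over all genes), and again none was past 2-fold (background 0.064%). In 18 of them the swapped arrays disagreed in sign, close to the background of 64.0%. Of the other 10, 5 were above 0 on both arrays and 5 below. RPB11, a platform subunit of Pol II, was at 0.21 ± 0.08. RPO31, the largest subunit of Pol III, was at 0.20 ± 0.12. RPB4 was lowest of the list at −0.18 ± 0.06. RPB7, which forms the Pol II stalk with RPB4, had the highest mean, 0.26, but its arrays read 0.62 and −0.10.

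**Figure D2:**
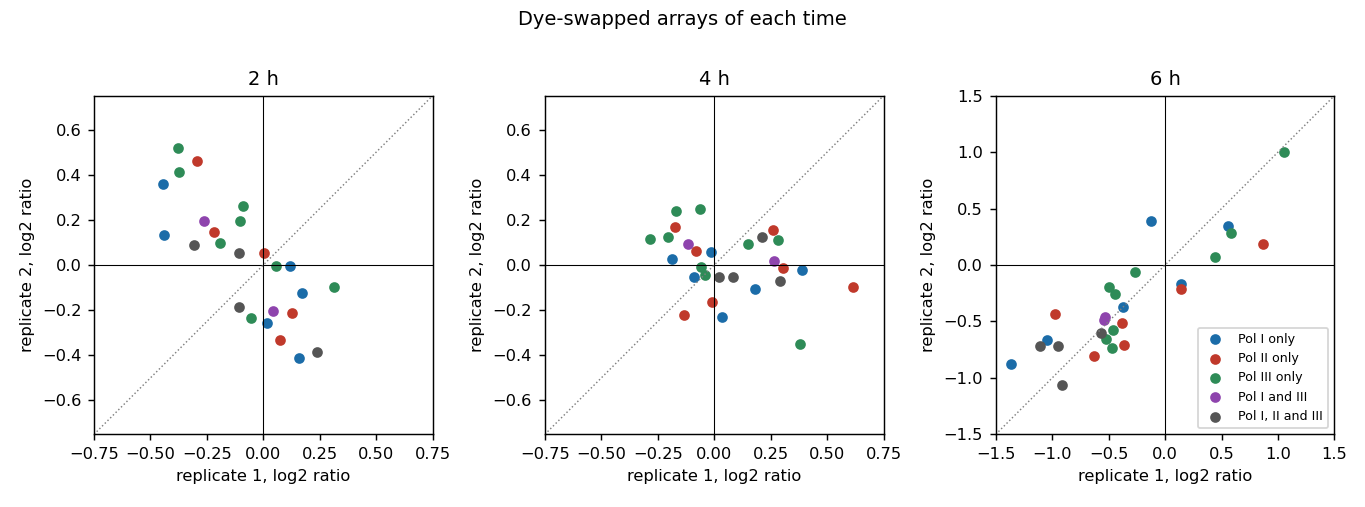
Log2 ratio on replicate 2 (y axis) against replicate 1 (x axis) for each subunit gene at 2, 4 and 6 h, coloured by polymerase, with equality dotted and a wider axis at 6 h. The 2 h points run from upper left to lower right (r = −0.79 over 25 genes), those of 4 h tilt the same way more weakly (r = −0.32 over 28), and those of 6 h follow equality (r = 0.86 over 27).

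Across the subunit genes the swapped arrays gave r = −0.79 (2 h), −0.32 (4 h) and 0.86 (6 h), and across all genes −0.40, −0.17 and 0.87. These are descriptions across genes of 1 RNA pair, and the arrays of a pair share their RNA. The difference between the replicates holds the part of a value that turns with the dye. Between 2 h and 6 h, where the numbering of the dyes is opposite, it correlated with r = −0.81 over 24 subunit genes, so a gene that read high in Cy5 at one time tended to do so at the other. Arrays of like dye did not all run the same way, for the 4 h and 6 h arrays with doxycycline RNA in Cy5 had r = −0.25 over all genes, −0.31 without YPI1 and −0.29 over the subunit genes. Every other pair of like dye had a positive r over all genes, from 0.22 to 0.58. The ratios were kept in their deposited direction, because YPI1 would read 0.34 at 2 h and 0.16 at 4 h with the Cy3 arrays turned. Turned in that way, the subunit genes would lie between −0.45 and 0.31 at 2 h and between −0.20 and 0.36 at 4 h, again with none past 2-fold.

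At 6 h the arrays agreed. Of 27 subunit genes with both arrays, 3 had opposite signs (background 12.1%), 5 were above 0 on both (background 39.4%) and 19 below 0 on both (background 48.3%). Past 2-fold there was 1 gene higher, RPC82 (background 9.81%), and 1 lower, RPA12 (background 8.08%), which is 3.7% of the list in each direction. Just short of the limit was RPC10 at −0.99 ± 0.11. Asking for a 2-fold difference on each array left 0 subunit genes, since replicate 2 read 1.00, just under 1 before rounding, for RPC82 and −0.88 for RPA12, while 267 genes in all were then higher and 192 lower. The median of the list was −0.50 (array medians −0.46 and −0.46), against −0.10 over all genes.

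Among the catalytic pairs, the 4 measured genes were all above 0 on both arrays. RPB2 of Pol II read 0.87 and 0.18, a mean of 0.53 ± 0.49. RPA135 of Pol I read 0.56 and 0.35, a mean of 0.45 ± 0.15. For Pol III, the largest subunit RPO31 read 0.58 and 0.28, a mean of 0.43 ± 0.22. Its partner RET1 read 0.44 and 0.07, a mean of 0.25 ± 0.26. The order RPB2, RPA135, RPO31, RET1 is not resolved, because neighbours differ by less than their SDs. All are near the 1.19 to 1.44-fold range, and on each the replicate with doxycycline RNA in Cy3 was the higher one. Their 4 genes are 3450 to 4383 bp long, where other yeast genes were also above 0 at 6 h. Matched genes are the 20 on a subunit gene's own chromosome that come closest to it in length, and relative to these they were at 0.15, −0.10, 0.07 and −0.13 in the same order. For RPB2, RPO31 and RET1, which lie together on chromosome XV, those 20 include 1 or 2 of the others, and the lengths span from 2958 to 5112 bp. As a second correction, a curve of the ratio on length over all chromosomes (the length curve) was taken off each array. With it removed all 4 were below 0, RPB2 at −0.04, RPA135 at −0.12, RPO31 at −0.07 and RET1 at −0.335.

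RPC82 encodes the largest member of the RPC82, RPC34 and RPC31 trimer, which Pol III needs to open promoters and which resembles the Pol II factor TFIIE. The 2 h arrays read 0.06 and −0.01, the 4 h arrays −0.28 and 0.11, and the 6 h arrays 1.05 and 1.00. Only at 6 h do its arrays leave the neighbourhood of 0, and there they nearly coincide, at 2.04-fold. Its trimer partners lay on the other side at that time, with RPC34 at −0.17 ± 0.15 and RPC31 at −0.59 ± 0.09. The RPC82 gene has 1965 bp against 954 and 756 bp for its partners. Genes of 1800 to 2163 bp on its chromosome XVI had medians of 0.98 and 1.17 on the 2 arrays, which puts RPC82 at −0.05 relative to them. With the length curve over all chromosomes removed instead, it was at 0.39, the highest of the list.

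The other built-in factors belong to dimers that resemble the Pol II factor TFIIF. In Pol I, RPA49 was at 0.13 ± 0.36, its arrays differing in sign, and RPA34 was at −0.37 ± 0.00. In Pol III, RPC53 read −0.49 and −0.20, a mean of −0.34 ± 0.21, and RPC37 was at −0.52 ± 0.08. Matching moved them in different directions, to 0.33 for RPA49, 0.20 for RPA34, −0.54 for RPC53 and −0.25 for RPC37. RPC53 is thus the lowest subunit gene relative to matched genes, at −0.61 and −0.47 on the 2 arrays, and with the length curve removed it was lowest too, at −0.53. RPA49 turned to −0.02 with that curve removed.

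The subunits common to all 3 enzymes had the lowest median of the 5 enzyme classes at 6 h. All 4 measured genes were below 0 on both arrays, with a median of −0.87 (array medians −0.93 and −0.72). RPC10, the shortest measured gene of the list at 213 bp, read −0.91 and −1.06. RPB8 read −1.11 and −0.72. RPO26 read −0.95 and −0.72. RPB5, the longest of them at 648 bp, read −0.57 and −0.60, above the other 3 on both arrays. Relative to matched genes they were nearer 0, at −0.37 for RPC10, −0.09 for RPB8, −0.17 for RPO26 and −0.04 for RPB5. The matched genes of RPC10 reached from 177 to 546 bp, so its length is matched only loosely. With the length curve removed RPC10 turned to 0.09, while RPB8 was at −0.19, RPO26 at −0.21 and RPB5 at −0.06.

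The assembly platform, which nucleates the enzymes and is related to the alpha subunits of bacterial polymerase, differed between its pairs. RPC40 and RPC19, the pair that Pol I and Pol III share, were at −0.50 ± 0.05 and −0.52 ± 0.03 and so nearly equal, although RPC40 is 1008 bp long and RPC19 429 bp. In Pol II the pair parted, with RPB11 at −0.71 ± 0.38 and RPB3 at −0.03 ± 0.25, its arrays differing in sign. These 4 genes were at 0.07, 0.14, 0.21 and 0.09 relative to matched genes. With the length curve removed RPC40 turned to −0.33, while the other 3 were between 0.11 and 0.22.

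Stalk genes lay at or below 0 in all 3 enzymes. The dimer RPA43 and RPA14 of Pol I, which receives the initiation factor Rrn3, had −0.01 ± 0.22 and −0.86 ± 0.27. The dimer RPB4 and RPB7 of Pol II, which can leave the enzyme, had −0.72 ± 0.12 and −0.45 ± 0.09. The dimer RPC25 and RPC17 of Pol III had −0.60 ± 0.19 and −0.35 ± 0.13. RPA43 is the gene that matching moved farthest from 0. Its arrays read 0.15 and −0.17, whereas genes of 939 to 1020 bp on its chromosome XV had medians of −0.54 and −0.60, which leaves RPA43 at 0.68 and 0.43, a mean of 0.56. After removal of the length curve RPA43 was at 0.18. The other 5 stalk genes were between −0.16 and 0.28 relative to matched genes.

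RPA12, RPC11 and RPB9 are small zinc-binding subunits near the active site, and the first of these carries out RNA cleavage in Pol I. For RPA12 the 2 h arrays read 0.02 and −0.26, the 4 h arrays 0.18 and −0.11, and the 6 h arrays −1.36 and −0.88, a mean 2.18 times below untreated cells. RPB9, of Pol II, had −0.54 ± 0.24 at 6 h. RPC11, its Pol III relative, had −1.15 on its only array. Genes of like length on chromosome X had medians of −0.88 and −0.91, which leaves RPA12 at −0.48 and 0.03, a mean of −0.22 with arrays of opposite sign.

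By enzyme, the 6 h medians were −0.19 for the 6 measured genes of Pol I alone, −0.49 for the 6 of Pol II alone and −0.34 for the 9 of Pol III alone. The lowest and highest values were −1.12 and 0.45 in Pol I, −0.72 and 0.53 in Pol II, and −0.60 and 1.03 in Pol III, so the stretch from −0.60 to 0.45 lies inside all 3 ranges. RPC11 of Pol III, which read −1.15 on its only array, is not in these medians and ranges. Relative to matched genes the medians were 0.10, 0.17 and −0.05. With 1 RNA pair at 6 h, differences between the enzymes were not tested.

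**Figure D3:**
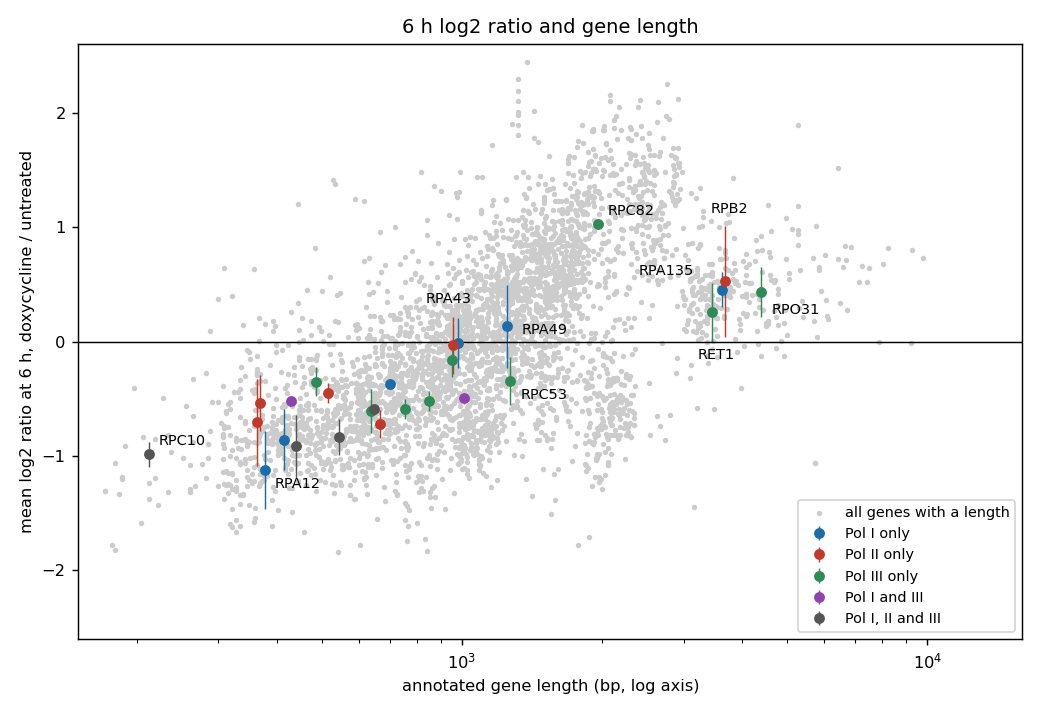
Mean log2 ratio at 6 h (y axis) against annotated gene length in bp (log x axis), for 27 subunit genes coloured by polymerase, with bars of ± 1 SD over 2 arrays, and for all genes with a length in grey, 2 of which lie outside the axis. Subunit genes under 1300 bp lie between −1.12 and 0.13, the 5 over 1900 bp between 0.25 and 1.03, and both sets fall inside the grey cloud.

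Gene length parted long from short subunit genes at 6 h. No subunit gene is between 1300 and 1900 bp long, and that gap was used to divide them after the values were seen. All 5 measured genes over 1900 bp were above 0 on both arrays, against 69.2% of 738 genes of that length in the whole table. Within these 5 the values did not rise with length, since RPC82, the shortest at 1965 bp, was the highest. Of the 22 measured genes under 1300 bp, 19 were below 0 on both arrays and none above, against 66.7% of 2295 genes of that length below. The ranges of the 2 sets, 0.25 to 1.03 and −1.12 to 0.13, do not overlap. Over all genes the same 2 length sets do overlap, with YCR011C (3150 bp) at −1.445 and YFR017C (588 bp) at 1.24, for example. Their medians were 0.45 and −0.53, beside 0.56 and −0.41 for all genes of those lengths. The Spearman correlation of the 6 h value with gene length was 0.84 over 27 subunit genes and 0.63 over 3921 genes. It was 0.34 at 2 h and −0.12 at 4 h over the subunit genes. These are descriptions across genes, which share the arrays and their normalization and are not replicates. What makes the ratios go with length was not tested.

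**Figure D4:**
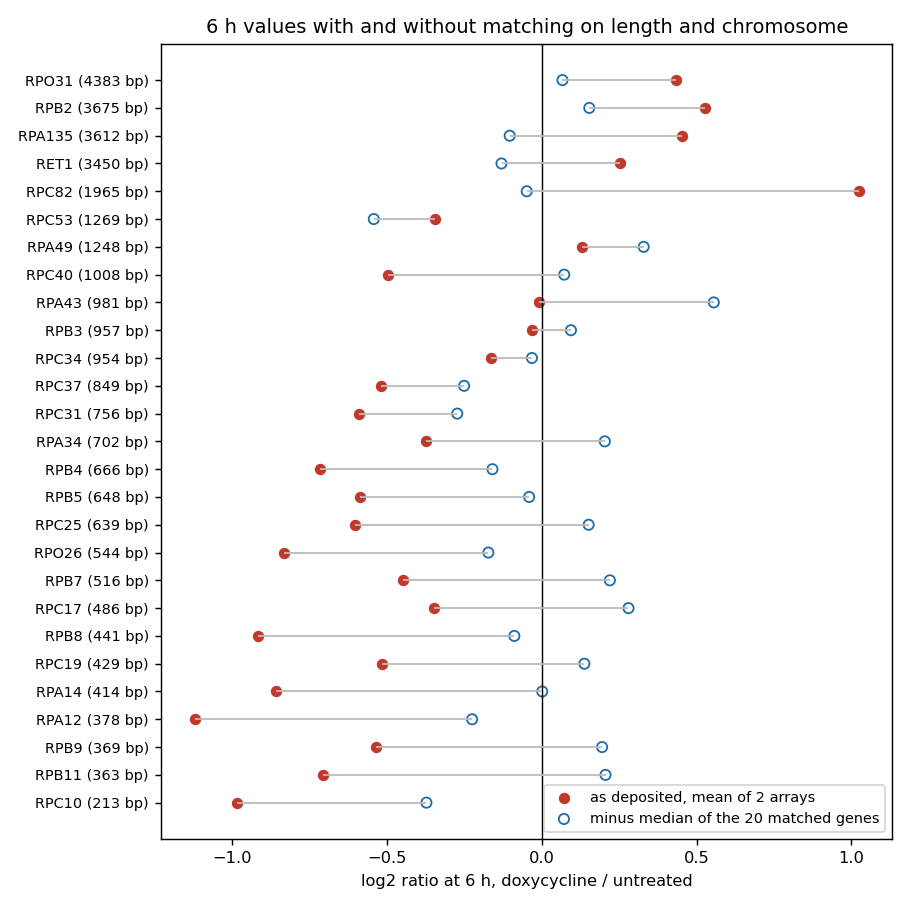
Log2 ratio at 6 h (x axis) of 27 subunit genes, sorted by annotated length in bp (y axis). Filled red points are the deposited values as means of 2 arrays, and open blue points the same after taking off the median of their 20 matched genes. Filled points drift from below 0 at the bottom to above 0 at the top, while open points stay between −0.54 and 0.56.

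Set against matched genes, 23 of the 27 subunit genes moved nearer to 0, and 14 changed sign. The 4 that moved away were RPA43, RPA49, RPC53 and RPB3. The list then ran from −0.54 for RPC53 to 0.56 for RPA43, inside the range of −0.82 to 0.78 that holds the middle 90% of all genes. In 25 of the 27 the difference was under 0.5 in size, as it was for 73.6% of all genes. On both arrays 10 genes (37.0%) were then above 0 and 8 (29.6%) below, against 36.0% and 38.4% of all genes. The Spearman correlation with length was −0.03 over the subunit genes after matching.

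Genes that load, drive or assemble the polymerases are given beside the subunit genes at 6 h. Over all genes 39.4% were above 0 on both arrays and 48.3% below, 9.81% past 2-fold higher and 8.08% lower, and the lists' counts stand against these shares. None of the 48 tested members of 5 such lists passed the limma test of the mean or of the slope. Of 10 measured factors of Pol I and ribosomal DNA, 3 were above 0 on both arrays and 6 below, with a median of −0.33. REB1, which binds the Pol I terminator and many Pol II promoters, was at 1.78 ± 0.33 (0.43 relative to matched genes). RRN5, of the upstream activating factor of Pol I, was at −1.08 ± 0.07 (−0.94). Of 17 measured general factors of Pol II, 6 were above 0 and 10 below, with a median of −0.28. The TFIIH helicase SSL2 was highest at 1.39 ± 0.20 (0.51), TFG1 of TFIIF was at 1.39 ± 0.31 (0.11) and SSL1 of TFIIH at 1.14 ± 0.12 (0.38). The small TFIIH subunit TFB5 was lowest at −1.19 ± 0.14 (−0.26). The 4 named here as past 2-fold higher have genes of 1386 to 2532 bp and TFB5 one of 219 bp, while RRN5, at 1092 bp, stayed low after matching.

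Pol II elongation factors and enzymes of the tail of RPO21 had a median of −0.01, with 9 of 19 above 0 on both arrays and 8 below. Past 2-fold were SGV1, a kinase of elongating Pol II, at 1.30 ± 0.00 (0.27) and LEO1 of the Paf1 complex at 1.12 ± 0.55 (0.72). SPT4, an elongation factor, was lowest at −0.93 ± 0.12 (−0.21). For Pol III, 6 of 10 factors were measured, 4 above 0 on both arrays and 2 below, with a median of 0.13. BDP1 of TFIIIB was at 1.21 ± 0.18 (0.37). PZF1, which is TFIIIA of the 5S genes, was lowest at −0.71 ± 0.24 (−0.69). Assembly and import factors had a median of 0.17, with 5 of 8 above 0 and 2 below and none past 2-fold. RVB2, an ATPase of the assembly chaperone, was at 0.78 ± 0.03 (0.74), and its partner in the R2TP complex TAH1 was at −0.94 ± 0.06 (−0.39).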

How the data were processed

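The deposited values are log2 ratios of doxycycline over untreated RNA, as far as the values show; the labels state neither the log base nor the normalization. Per the labels' protocols, cDNA was primed with oligo(dT), and spots under 120 µm or under 100 units in Cy3 and Cy5 were dropped by the authors. Replicate 2 of 2 h carries Cy3 on both channels in the labels and was taken as the dye swap.

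Of 6212 identifiers, 5662 matched the R64 gene table, which gave names, chromosomes and annotated lengths. The files name no genome build, so no coordinates are given. Arrays of a time were averaged, and limma 3.58.1 in R 4.3.3 tested the mean over 3 RNA pairs against 0 and the slope through 0 on hours, with Benjamini-Hochberg adjustment at 0.05 over all 3391 complete genes. The fits were run on simulated data with changes of known size, and had to return that size on average. No requirement was set on how many such changes passed the tests, and that share is not given here. Matched genes are the 20 nearest in length on the chromosome, per array; the length curve is a lowess (span 0.3, 3 robust steps, statsmodels 0.14.6). Alternatives were centring, these corrections, left-out arrays and times, filters, variance models, blocks, sign turns and call rules; the rule of each array past 2-fold, the alternatives of single 2 h and 4 h ratios and the counts above and below 0 at 6 h were added after seeing the data.

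Subunits were all named; from each list of factors, the highest and lowest at 6 h and any past 2-fold. Members and lists were chosen with earlier results of these data known.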

Additional observations from a re-analysis of the deposited data

Results flagged for a closer look

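In 5 comparisons of times, all in 4 subunit genes, both arrays of one time lay on one side of 0 and both arrays of another on the opposite side. These differences were not tested, since each time had 1 RNA pair. The same pattern held for 8.09% of all genes between 2 h and 4 h, 10.6% between 2 h and 6 h and 23.7% between 4 h and 6 h, against 4.0%, 4.17% and 11.1% of the subunit genes measured. RPB8, common to all enzymes, was at 0.17 at 4 h and −0.92 at 6 h, a difference of −1.08. RPB11 of Pol II was at 0.21 and −0.71 at these times, a difference of −0.91. RPC40 of Pol I and III was at 0.14 and −0.50, a difference of −0.64. RPB4 of the Pol II stalk had 0.03 (2 h), −0.18 (4 h) and −0.72 (6 h), which gives differences of −0.20 (4 h against 2 h) and −0.74 (6 h against 2 h). Its 2 h arrays read 0.003 and 0.052, both close to 0. All 4 genes are under 1300 bp, a length at which most genes were below 0 at 6 h. Relative to matched genes RPB8, RPB11, RPC40 and RPB4 were at −0.09, 0.21, 0.07 and −0.16 at 6 h. With the length curve removed they were at −0.19, 0.11, −0.33 and −0.22. After matching, none of the 5 comparisons kept the pattern. The matched values of RPB4 at 2 h were −0.289 and 0.338, and those of RPB8 at 4 h were −0.092 and 0.171. RPB11 and RPC40 were then above 0 on both arrays of 4 h and of 6 h. Whether length accounts for the differences between times was not tested.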

How the results depend on the processing

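The 2 tests called 0 subunit genes under every alternative run, with 1 exception, the slope without 4 h, which called 9. That includes the fit of 6 arrays with the replicate number as a block (replicate block), which called 0 for the mean and 0 for the slope. That block mixes the dyes, since doxycycline RNA of replicate 1 was in Cy5 at 2 h and 4 h and in Cy3 at 6 h. Differences between replicates correlated across all genes with r = 0.57 between 2 h and 4 h, where the numbering of the dyes is alike. Where it is opposite, r was −0.71 between 2 h and 6 h and −0.54 between 4 h and 6 h. At 2 h and 4 h no alternative placed a subunit gene past the fold limit. At 6 h, 2 genes passed 2-fold, against 0 with the length curve removed, 0 relative to matched genes, 0 with each array past 2-fold, 11 at 1.5-fold (40.7%, against 49.2% of all genes), and 2 to 4 with a replicate left out. Where a value on 1 array of 6 h sufficed, 3 passed. The 5 genes above 0 on both arrays became 10 relative to matched genes, and the 19 below became 12 with the length curve removed and 8 relative to matched genes.

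The 6 h median of −0.50 was −0.45 with arrays centred, −0.48 to −0.46 with a replicate left out, −0.0639 with the length curve removed and 0.0015 relative to matched genes. At 2 h the median of −0.04 was 0.0122 relative to matched genes and −0.104 to 0.0245 with a replicate left out. At 4 h the median of 0.02 was 0.0102 with arrays centred, −0.0198 with the length curve removed, 0.0034 relative to matched genes, 0.0402 with the Cy3 arrays turned and 0.006 without either replicate. RPC82, past 2-fold at 6 h, turned to −0.0485 relative to matched genes. The causes of these changes were not tested. Of 27 single genes at 6 h, the sign turned in 0 without replicate 1, 3 without replicate 2, 2 with arrays centred, 15 with the length curve removed and 14 relative to matched genes. Without replicate 1 or 2, it turned in 11 and 11 of 25 at 2 h and in 13 and 5 of 28 at 4 h.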
